A study of Mus musculus with 12 samples.

Results

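Trav7 is a family of variable segments of the T cell receptor alpha (Tcra) locus, and its segments without a D suffix are described here across DP thymocytes of DPASE knockout (KO) and wild-type (WT) mice. The members were all table entries named TRAV7 followed by a hyphen and a number, with every Traj partner. They are the 6 segments TRAV7-1 to TRAV7-6, out of 85 Trav segments listed in any table. TRAV7-1 to TRAV7-5 stood in all 12 tables. TRAV7-6 stood in 4, the replicate 1 libraries of KO and WT mice sampled at steady state or 48 h, and its value in the other 8 is missing and was not taken as 0. A segment's share is its summed value over all Traj partners as a percentage of its own table's total.

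A Trav segment encodes most of the variable domain of the TCR alpha chain and is joined to 1 of many Traj segments in DP thymocytes by the RAG recombinase. Traj numbers fall along the Traj array, so that a high number lies nearest the Trav segments and a low number farthest downstream. The first rearrangements on an allele join proximal Trav segments to high-numbered Traj segments, and later rounds replace them with more distal Trav and lower-numbered Traj segments. In mice the middle of the Trav array is duplicated, which gave many families copies named with a D or N suffix. DPASE is known as a regulatory element of the recombinase genes Rag1 and Rag2 (background, not from these data).

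KO mice were homozygous for the DPASE knockout and the controls were homozygous WT, all 4 to 6 weeks old and C57BL/6J in strain. Mice of both genotypes carried TcrdCreER, a tamoxifen-inducible Cre placed in the Tcra-Tcrd loci on a strain 129 background, and a ZsGreen reporter at Rosa26, whose label reads ZsG/ZsG under strain and ZsG/+ under genotype. Cells were sorted as CD3e-negative DP thymocytes, taken before receptor selection: all such cells at steady state, and the ZsGreen-positive ones 24 h and 48 h after 1 mg of tamoxifen. That made 6 groups with 2 libraries in each. Mice were used in groups of 2, and nothing says that a library is 1 mouse, so p-values measure only how these libraries vary, which may be technical. Steady state differs from 24 h and 48 h in tamoxifen and in the ZsGreen gate as well as in time, and these cannot be told apart.

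The tables hold Trav and Traj usage but no DPASE, Rag or surface marker, so the genotype and the gate could not be checked. The pair of invariant NKT cells, TRAV11 with TRAJ18, had a median share of 0.0213% in KO and 0.0316% in WT libraries (n = 6 each). The pair of MAIT cells, TRAV1 with TRAJ33, had 0.00636% in KO and 0.0283% in WT libraries, and its part in the results was not tested. Depth is unknown, and a table's smallest share above 0 stands in for its resolution. In 8 tables the deposited fractions totalled 0.995 to 0.998, with a smallest share of 0.000336% to 0.000853%. In the other 4, replicate 2 of both genotypes at 24 h and 48 h, they totalled 1.97 to 1.99, with a smallest share of 0.00401% to 0.00937% and 43.5% to 56.7% of Trav-Traj pairs at 0. Those 4 libraries stand apart in several results below, some of which are also given without them.

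The Trav7 genes lie on the plus strand of chromosome 14 in GENCODE M21 (GRCm38), each annotated as a TR_V_gene with 2 exons. Trav7-1 lies farthest upstream, at chr14:52654817-52655328. Trav7-2 follows at chr14:53390635-53391142, Trav7-3 at chr14:53443249-53443839, Trav7-4 at chr14:53461099-53461738 and Trav7-5 at chr14:53530786-53531313. Trav7-6, at chr14:53716716-53717291, is the nearest of the 6 to the Traj array. In the tables' own order of the 79 Trav segments shared by all, counted from the distal end, TRAV7-1 ranked 4, TRAV7-2 39, TRAV7-3 42, TRAV7-4 44 and TRAV7-5 51. TRAV7-6 came after the segment ranked 68.

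The coding sequences of 3 members are printed from base 61 to the 3′ end because the results turn on them: Trav7-1, the distal member, Trav7-4, which is closest to it in sequence, and Trav7-5, the most proximal of those listed in every table. Capitals mark bases that are not the sole most common base at their position in an alignment of the 6 members, and the last capitals of Trav7-4 follow from its 4 extra bases at the 3′ end.
Trav7-1: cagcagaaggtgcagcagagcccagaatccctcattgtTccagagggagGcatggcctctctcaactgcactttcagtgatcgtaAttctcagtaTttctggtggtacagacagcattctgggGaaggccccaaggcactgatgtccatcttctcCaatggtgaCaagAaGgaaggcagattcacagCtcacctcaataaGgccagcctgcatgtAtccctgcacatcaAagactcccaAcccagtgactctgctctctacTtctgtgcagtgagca
Trav7-4: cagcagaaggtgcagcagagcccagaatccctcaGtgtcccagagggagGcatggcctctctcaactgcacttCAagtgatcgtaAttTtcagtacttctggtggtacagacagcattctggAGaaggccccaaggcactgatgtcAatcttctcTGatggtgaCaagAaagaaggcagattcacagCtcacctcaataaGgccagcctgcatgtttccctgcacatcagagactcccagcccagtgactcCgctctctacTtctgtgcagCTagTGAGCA
Trav7-5: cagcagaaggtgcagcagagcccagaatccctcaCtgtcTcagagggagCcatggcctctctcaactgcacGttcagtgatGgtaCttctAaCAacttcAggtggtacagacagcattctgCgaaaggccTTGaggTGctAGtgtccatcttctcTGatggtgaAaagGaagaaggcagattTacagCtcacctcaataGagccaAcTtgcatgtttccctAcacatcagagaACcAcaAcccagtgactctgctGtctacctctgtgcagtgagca

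The 6 coding sequences are 336 to 341 bases long. Of 341 aligned positions, 108 varied among them. Trav7-1 and Trav7-4 were the most alike, at 93.2% of bases, and Trav7-2 and Trav7-6 the least, at 81.5%. The D-suffixed copies are closer still. Trav7-2 and Trav7d-2 did not differ at any of 336 bases compared, with 1 further base opposite a gap. Trav7-3 and Trav7d-3 differed at 2 of 337, and Trav7-4 and Trav7d-4 at 2 of 341. Trav7-5 and Trav7d-5 differed at 14 of 337. How the authors assigned reads between such copies is not given in the sources used here, and the mice carried a strain 129 locus. The split between TRAV7-2, TRAV7-3, TRAV7-4 and their D copies is therefore uncertain.

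The 5 members listed in every table together made up 6.54% to 10.8% of a repertoire, with a median of 9.84% over the 12 libraries. Their levels were uneven. TRAV7-3, TRAV7-4 and TRAV7-5 each held 0.763% to 5.08% of a repertoire, while TRAV7-1 held 0.0763% to 1.12% and TRAV7-2 0.0249% to 0.223%. At steady state the order was TRAV7-3, TRAV7-4, TRAV7-5, TRAV7-1, TRAV7-2 in KO and in WT thymocytes, and no 2 neighbours in it overlapped between their libraries. At 24 h the order was TRAV7-4, TRAV7-5, TRAV7-3, TRAV7-1, TRAV7-2 in both genotypes, with the libraries of TRAV7-5 and TRAV7-3 overlapping. At 48 h it was TRAV7-4, TRAV7-3, TRAV7-5, TRAV7-1, TRAV7-2, and the first 3 overlapped with their neighbours in both genotypes. The shares by library are shown in the plot of all 6 members.

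**Figure D1:**
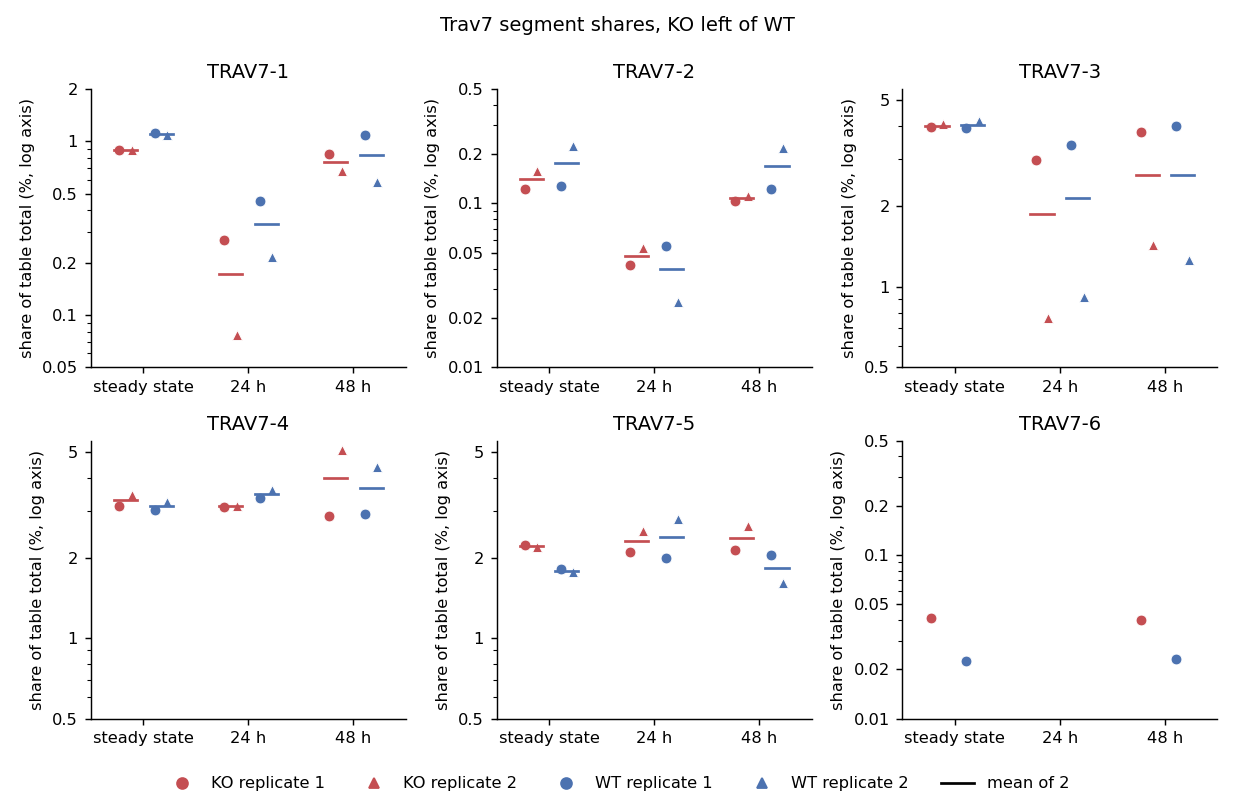
Share of each Trav7 segment in percent of its table's total (y axis, log scale) by sampling (x axis), KO in red left of WT in blue; circles are replicate 1, triangles replicate 2 and bars the mean of 2. TRAV7-1 held 0.0763% to 0.455% at 24 h and at least 0.585% in every other library, and TRAV7-6 has a value only in 4 libraries.

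TRAV7-1, the distal member, leaned lower in KO thymocytes. At steady state it held 0.887% and 0.897% in KO libraries, against 1.12% and 1.09% in WT libraries. At 24 h it held 0.268% and 0.0763% in KO libraries, against 0.455% and 0.214% in WT libraries. At 48 h it held 0.844% and 0.670% in KO libraries, against 1.09% and 0.585% in WT libraries. Both KO libraries lay below both WT libraries at steady state, where 38% of the 79 segments did so, and the groups overlapped at 24 h and 48 h. Compared by replicate number, KO was above WT in 1 of 6 pairs.

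On the log2(percent + 0.01) scale, which understates changes of low shares, TRAV7-1 differed by -0.31 at steady state (SE 0.60), by -1.06 at 24 h (SE 0.60) and by -0.087 at 48 h (SE 0.60), KO minus WT. None of these passed (limma, Benjamini-Hochberg adjusted p over 79 segments 0.999, 0.970 and 0.982). The mean of the 3 differences was -0.48 (SE 0.35, 95% interval -1.28 to 0.31, limma adjusted p = 0.867). Single libraries of 24 h moved it most. Without KO 24 h replicate 2 the 24 h difference was -0.21 and the mean -0.20, and without KO 24 h replicate 1 they were -1.90 and -0.77. Without WT 24 h replicate 1 they were -0.53 and -0.31, and without WT 24 h replicate 2 -1.59 and -0.66. Over the 12 ways of leaving out 1 library none passed, with an adjusted p of 0.634 to 0.995 for the mean. Replicate numbers paired KO with WT libraries in their shares, and with the replicate as a block limma called TRAV7-1 lower in KO at 24 h (adjusted p = 0.0468) and in the mean of the 3 (adjusted p = 0.0258). At 24 h and 48 h replicate 2 is also the library that totals nearly 2 in each genotype. Pairing and kind of table cannot be told apart there. At steady state the replicates differ, alike in both genotypes, in which segments are listed, and pairing cannot be told apart from that either. The block called 5.06% of all segments at 24 h, 3.8% as lower, and 43% in the mean, 24.1% as lower, so TRAV7-1 was 1 of many in the mean. At 48 h the block called 0 members, against 19% of segments higher and 16.5% lower, and in the mean 0 members higher, against 19%. Without the 4 libraries that total nearly 2, its mean difference was -0.47 (SE 0.065, limma adjusted p = 0.0259), with 41.8% of all segments called. That fit has 1 library a group at 24 h and 48 h and takes its spread from steady state alone, so the lone libraries are assumed to vary like those.

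TRAV7-5, at the proximal end of the members in every table, leaned the other way. It held 2.24% and 2.20% in KO libraries at steady state, against 1.81% and 1.77% in WT libraries. At 24 h it held 2.11% and 2.52% in KO libraries, against 2.00% and 2.80% in WT libraries. At 48 h it held 2.14% and 2.62% in KO libraries, against 2.05% and 1.61% in WT libraries. Both KO libraries stood above both WT libraries at steady state, as in 29.1% of all segments, and at 48 h, as in 13.9%, and the groups overlapped at 24 h. KO was above WT in 5 of 6 same-numbered pairs. The differences, KO minus WT, at the 3 samplings in turn were 0.31, -0.035 and 0.38 (SE 0.31 each), and their mean was 0.22 (SE 0.18, 95% interval -0.19 to 0.62). None passed in limma (adjusted p 0.999, 0.970, 0.979 and 0.867), nor with the replicate block, where the mean had an adjusted p of 0.136.

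The 3 members between them in the array overlapped between genotypes at most samplings. TRAV7-4 held 3.14% and 3.45% in KO and 3.02% and 3.25% in WT libraries at steady state, 3.11% and 3.12% in KO and 3.35% and 3.60% in WT libraries at 24 h, and 2.88% and 5.08% in KO and 2.93% and 4.39% in WT libraries at 48 h. Its KO libraries lay below its WT libraries at 24 h, as in 7.59% of all segments, and overlapped with them otherwise. TRAV7-3 held 3.96% and 4.05% in KO and 3.92% and 4.18% in WT libraries at steady state, 2.97% and 0.763% in KO and 3.40% and 0.914% in WT libraries at 24 h, and 3.79% and 1.43% in KO and 3.99% and 1.26% in WT libraries at 48 h. The low second value at 24 h and 48 h came in both genotypes from the libraries that total nearly 2, and in those same libraries TRAV7-4 was higher at 48 h. TRAV7-2 held 0.122% and 0.158% in KO and 0.128% and 0.223% in WT libraries at steady state, 0.0419% and 0.0534% in KO and 0.0546% and 0.0249% in WT libraries at 24 h, and 0.104% and 0.111% in KO and 0.123% and 0.218% in WT libraries at 48 h. At 48 h both KO libraries of TRAV7-2 lay below both WT libraries, as in 6.33% of all segments, and its groups overlapped at the other samplings.

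The mean KO minus WT difference over the 3 samplings was -0.19 for TRAV7-2 (SE 0.26, 95% interval -0.77 to 0.40), -0.061 for TRAV7-3 (SE 0.52, -1.25 to 1.13) and 0.0038 for TRAV7-4 (SE 0.21, -0.47 to 0.48). The intervals allow changes of either sign. In all, limma called 0 of 5 members and 0% of 79 segments in each of the 3 samplings and in their mean. At an unadjusted p under 0.05 it found 0 members in each of these comparisons, and 0, 0, 1 and 5 of 79 segments. The members' median difference in the mean of the 3 was -0.061, beside -0.10 over all 79 segments.

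In the mean of the 3 samplings, the order of the members by position was also their order by KO minus WT difference in share on the log2 scale. From distal to proximal the mean differences were -0.48 for TRAV7-1, -0.19 for TRAV7-2, -0.061 for TRAV7-3, 0.0038 for TRAV7-4 and 0.22 for TRAV7-5. These ranked 7, 32, 43, 52 and 60 of 79 segments, counted from the lowest. All segments followed a similar course, as the plot by table order shows. The median difference was -0.30 over 26 distal, -0.15 over 26 central and 0.26 over 27 proximal segments, and 1, 5 and 24 segments of these zones were positive. The order also held at steady state. It did not hold at 24 h, where TRAV7-2 stood highest at 0.27, nor at 48 h, where TRAV7-2 stood lowest at -0.57. In the mean it was lost whichever single library of 24 h or 48 h was left out, as without KO 24 h replicate 2, where TRAV7-3 stood at 0.26, above TRAV7-5 at 0.18, and it was kept whichever library of steady state was left out. The order among 5 members was not tested.

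**Figure D2:**
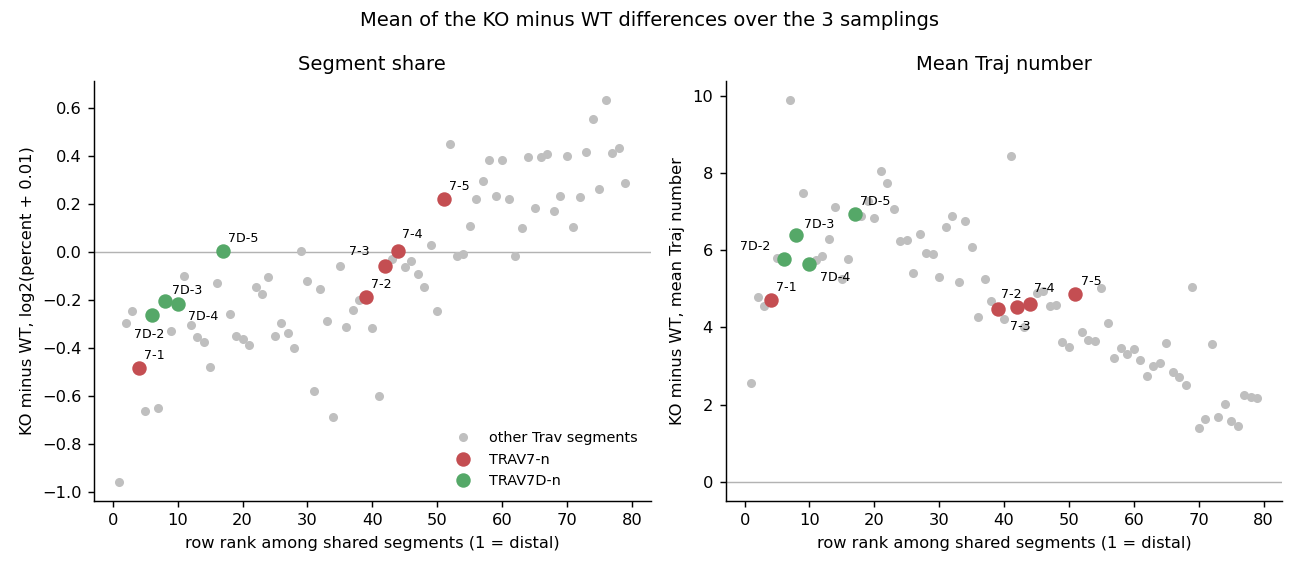
Mean of the 3 KO minus WT differences for 79 Trav segments by their rank in the tables (x axis, 1 is the most distal), for segment share on the log2(percent + 0.01) scale (left) and for the mean Traj number (right); red points are TRAV7-1 to TRAV7-5, green points TRAV7D-2 to TRAV7D-5. In share, TRAV7-1 stands at -0.48 and TRAV7-5 at 0.22; in mean Traj number the 5 members lie between 4.48 and 4.87.

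TRAV7-6, the most proximal member, can be given for 1 library a group only, with no test. It held 0.0413% in the KO and 0.0224% in the WT library at steady state, and 0.0399% in the KO and 0.0231% in the WT library at 48 h. These are ratios of 1.85 and 1.73, KO over WT, without a replicate check.

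The copies with a D suffix lie distal to their namesakes. TRAV7D-2, TRAV7D-3, TRAV7D-4 and TRAV7D-5 rank 6, 8, 10 and 17 in the tables. Together they held 3.07% to 6.65% of a repertoire, with a median of 4.58%. TRAV7-3 was 2.31 to 3.41 times as frequent as TRAV7D-3 in the 12 libraries, TRAV7-4 was 1.32 to 4.90 times as frequent as TRAV7D-4 and TRAV7-5 was 1.299 to 2.92 times as frequent as TRAV7D-5. TRAV7-2 was the exception, at 0.0636 to 0.593 times the share of TRAV7D-2, the copy that did not differ from it at any base compared. The ratio of TRAV7-4 to TRAV7D-4 was 3.14 and 2.21 in replicate 2 of KO and WT at steady state, against 1.57 and 1.32 in replicate 1, 3.03 and 2.56 in replicate 2 at 24 h, against 2.05 and 2.06 in replicate 1, and 4.90 and 3.91 in replicate 2 at 48 h, against 1.58 and 1.56 in replicate 1. The ratio was thus higher in replicate 2 of both genotypes at all 3 samplings. The mean KO minus WT differences in share were -0.26, -0.21, -0.22 and 0.0028 for TRAV7D-2, TRAV7D-3, TRAV7D-4 and TRAV7D-5. Limma called 0 of these 4 in any comparison of shares, with or without the replicate block, and 0 had an unadjusted p under 0.05 without it. Whether they differ from their namesakes in this was not tested.

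**Figure D3:**
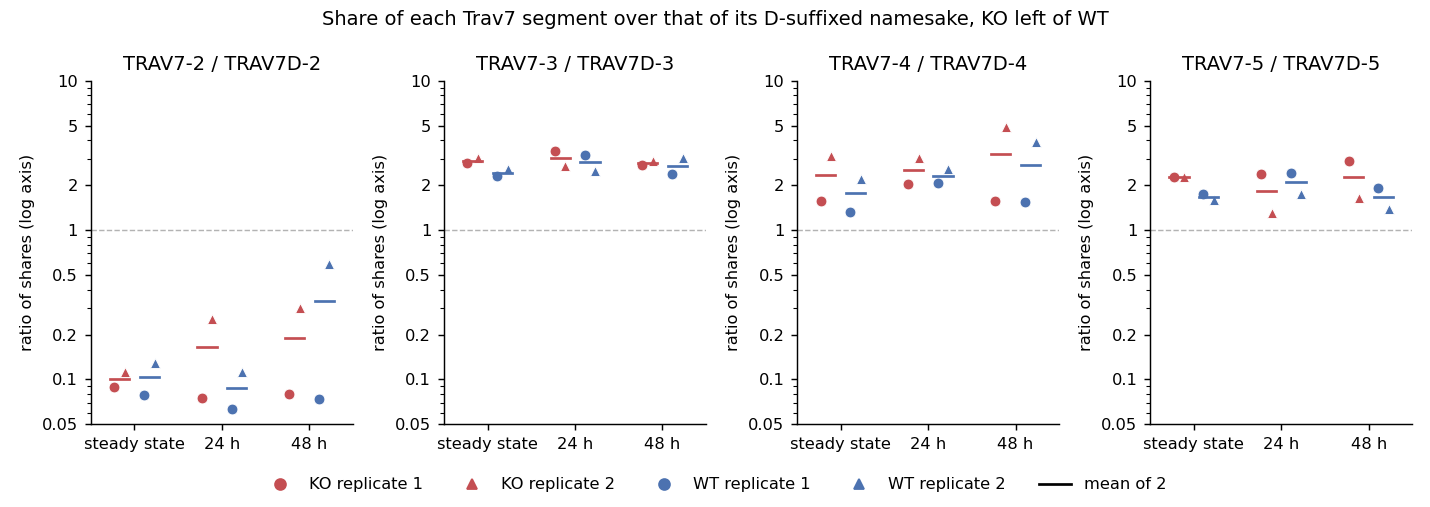
Ratio of the share of each Trav7 segment to that of the D-suffixed copy of the same number (y axis, log scale) by sampling (x axis), KO in red left of WT in blue; circles are replicate 1, triangles replicate 2, bars the mean of 2, and the dashed line marks equal shares. TRAV7-2 lies below its copy in all 12 libraries (0.0636 to 0.593) and the other 3 lie above theirs (1.299 to 4.90).

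Between steady state and 24 h, TRAV7-1 in KO was the one member share that limma called. At 24 h TRAV7-1 held 0.172% on average in KO libraries, against 0.892% at steady state, and the libraries did not overlap. How many of all segments separate likewise between these samplings was not counted. Its difference, 24 h minus steady state in KO, was -2.54 (SE 0.60, limma adjusted p = 0.0433), in a comparison where 6.33% of segments were called, all of them lower. Over all 79 segments the median of this difference was -0.37. With each library centred on its own mean over the 79 segments, TRAV7-1 differed by -1.95 (limma adjusted p = 0.0302). The call was lost when any 1 of 9 libraries was left out, with an adjusted p up to 0.241 without KO 24 h replicate 2, where the difference was -1.70. It was kept without KO 24 h replicate 1, with an adjusted p of 0.0178, and without either WT library of 48 h, with an adjusted p of 0.0449.

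In WT thymocytes TRAV7-1 averaged 0.335% at 24 h, against 1.11% at steady state, a difference of -1.79 (SE 0.60, limma adjusted p = 0.1096). TRAV7-2 averaged 0.0476% at 24 h and 0.140% at steady state in KO libraries, a difference of -1.38 (SE 0.44, limma adjusted p = 0.1199). In WT libraries it averaged 0.0398% at 24 h and 0.176% at steady state, a difference of -1.92 (SE 0.44, limma adjusted p = 0.0621). TRAV7-3 differed by -1.40 in KO and -1.19 in WT (SE 0.90 each, limma adjusted p 0.383 and 0.423). Limma called 0 of 5 members in WT, where 1.27% of segments were called and 2 members had an unadjusted p under 0.05. Without the 4 libraries that total nearly 2, TRAV7-1, TRAV7-2 and TRAV7-3 differed by -1.70, -1.52 and -0.43 in KO, 24 h minus steady state. In WT, TRAV7-1 and TRAV7-2 differed by -1.26 and -1.47. That fit has 1 library a group at 24 h and takes its spread from steady state alone.

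From 24 h to 48 h limma called no change in a member's share. With the replicate as a block, the lowest limma adjusted p of a member was 0.0660 in KO, for TRAV7-1, and 0.0937 in WT, for TRAV7-2. TRAV7-1 differed by 2.30 in KO (SE 0.60, limma adjusted p = 0.114) and by 1.33 in WT (SE 0.60, adjusted p = 0.278), 48 h minus 24 h. TRAV7-2 differed by 1.03 in KO (SE 0.44, limma adjusted p = 0.336) and by 1.87 in WT (SE 0.44, adjusted p = 0.107), and TRAV7-3 by 0.62 and 0.34 (SE 0.90 each, adjusted p 0.869 and 0.872). TRAV7-4 differed by 0.29 and 0.046 (SE 0.36 each) and TRAV7-5 by 0.039 and -0.38 (SE 0.31 each), in KO and in WT. Limma called 0 of 5 members in either genotype, where 1.27% of segments were called, and 2 members in KO and 1 in WT had an unadjusted p under 0.05. Without the 4 libraries that total nearly 2, TRAV7-1 differed by 1.62 in KO and 1.24 in WT, 48 h minus 24 h. That fit sets 1 library against 1 and takes its spread from steady state alone, so these differences have no replicate check. The change from 24 h to 48 h did not differ between genotypes for any member in limma (0 of 5 members and 0% of segments called, 0 members and 1 segment at an unadjusted p under 0.05, smallest adjusted p = 0.995).

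The partners of Trav7 segments differed between genotypes more plainly than their shares. The mean Traj number, each Traj number weighted by its share among a segment's rearrangements, was higher in KO than in WT thymocytes for all 5 members at steady state and at 48 h. TRAV7-5 had a mean Traj number of 36.5 and 35.1 in KO libraries at steady state, against 32.8 and 31.8 in WT libraries. At 24 h it had 45.8 and 47.9 in KO libraries, against 41.1 and 43.0 in WT libraries. At 48 h it had 37.6 and 38.8 in KO libraries, against 32.2 and 31.6 in WT libraries. The groups did not overlap at any sampling, and TRAV7-5 thus joined Traj segments nearer the Trav array in KO.

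TRAV7-1 lay at the other end of the members. Its mean Traj number was 30.7 and 29.9 in KO and 24.2 and 23.1 in WT libraries at steady state, 38.6 and 34.8 in KO and 35.4 and 33.1 in WT libraries at 24 h, and 34.8 and 33.8 in KO and 27.8 and 30.6 in WT libraries at 48 h. Its groups overlapped at 24 h only, when KO replicate 2 and WT replicate 2 had 6 and 22 of 43 Traj partners above 0. TRAV7-2 had 33.2 and 31.6 in KO and 26.4 and 24.3 in WT libraries at steady state, 40.9 and 41.1 in KO and 38.5 and 44.1 in WT libraries at 24 h, and 36.8 and 34.4 in KO and 28.5 and 29.2 in WT libraries at 48 h. Its value of 44.1 in WT replicate 2 at 24 h, the only one that exceeded that of the same-numbered KO library, rested on 4 partners above 0.

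TRAV7-3 had mean Traj numbers of 33.0 and 32.2 in KO and 28.6 and 27.6 in WT libraries at steady state, 42.3 and 44.3 in KO and 38.5 and 40.2 in WT libraries at 24 h, and 36.1 and 33.7 in KO and 29.4 and 30.0 in WT libraries at 48 h. TRAV7-4, beside it in the array, had 33.6 and 32.3 in KO and 29.1 and 28.3 in WT libraries at steady state, 43.1 and 44.5 in KO and 39.0 and 40.7 in WT libraries at 24 h, and 36.3 and 35.3 in KO and 29.8 and 30.6 in WT libraries at 48 h. Neither overlapped between genotypes at any sampling. KO was higher in 6 of 6 same-numbered pairs for TRAV7-1, TRAV7-3, TRAV7-4 and TRAV7-5 and in 5 of 6 for TRAV7-2. Such separation was common in the repertoire, with both KO libraries above both WT libraries in 97.5%, 86.1% and 83.5% of segments at the 3 samplings in turn.

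**Figure D4:**
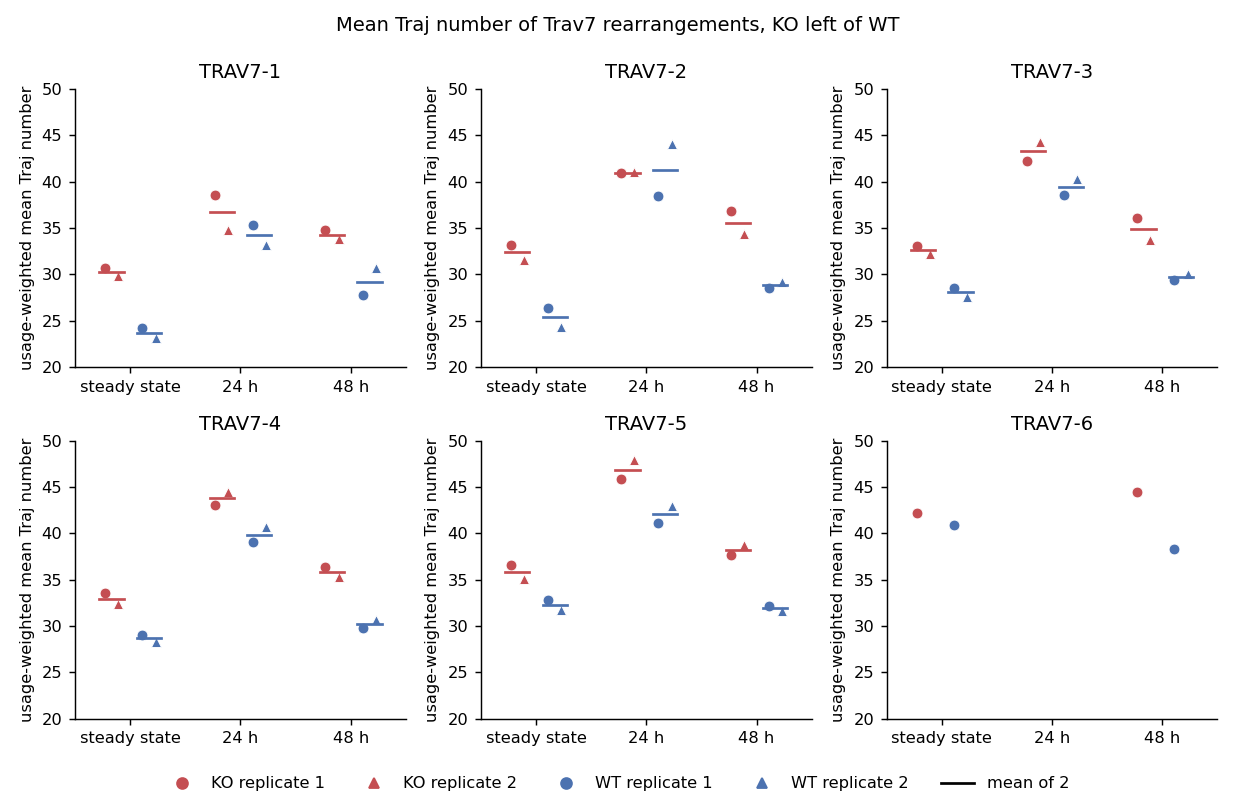
Usage-weighted mean Traj number of the rearrangements of each Trav7 segment (y axis, from 20 to 50) by sampling (x axis), KO in red left of WT in blue; circles are replicate 1, triangles replicate 2 and bars the mean of 2. TRAV7-3, TRAV7-4 and TRAV7-5 are higher in KO without overlap at each sampling, and in TRAV7-2 WT replicate 2 at 24 h, at 44.1, is above both KO libraries.

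Limma called a higher mean Traj number in KO for 5 of 5 members at steady state, against 48.1% of 79 segments. The differences, KO minus WT, were 6.61 for TRAV7-1 (SE 1.53, adjusted p = 0.00677), 7.0 for TRAV7-2 (SE 1.74), 4.52 for TRAV7-3 (SE 1.26), 4.28 for TRAV7-4 (SE 1.14) and 3.53 for TRAV7-5 (SE 1.21, adjusted p = 0.0334). At 24 h limma called 3 of 5, against 46.8% of segments. TRAV7-3 was higher by 3.89 (SE 1.26), TRAV7-4 by 3.91 (SE 1.14) and TRAV7-5 by 4.81 (SE 1.21), with adjusted p of 0.0286, 0.0203 and 0.0118. TRAV7-1 differed by 2.47 (SE 1.53, adjusted p = 0.164) and TRAV7-2 by -0.28 (SE 1.74, adjusted p = 0.888). At 48 h limma called 5 of 5, against 69.6% of segments, with differences of 5.04 for TRAV7-1 (SE 1.53) to 6.73 for TRAV7-2 (SE 1.74).

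In the mean of the 3 samplings limma called all 5, against 93.7% of segments. TRAV7-2 was higher by 4.48 (SE 1.01), TRAV7-3 by 4.53 (SE 0.73), TRAV7-4 by 4.60 (SE 0.66), TRAV7-1 by 4.71 (SE 0.88) and TRAV7-5 by 4.87 (SE 0.70), with adjusted p from 0.000145 to 0.00193. The members' median was 4.60 and that of all segments 4.71, so the members moved as the repertoire did. The 4 D copies differed by 5.78 for TRAV7D-2, 6.39 for TRAV7D-3, 5.63 for TRAV7D-4 and 6.94 for TRAV7D-5, and limma called each of them. The calls in single samplings leaned on single libraries. The share of all segments called without each library is not given. At steady state 0 of 5 members were called without KO replicate 1 or without WT replicate 2 of that sampling, and at 24 h 0 of 5 without KO replicate 2 or without WT replicate 1, while the mean kept 5 of 5 whichever library was left out.

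Within a library the mean Traj number of the members tended to rise from distal to proximal, though not at every step. TRAV7-1 was the lowest of the 5 members in 10 of 12 libraries and TRAV7-5 the highest in 11. It rose at each step among TRAV7-1, TRAV7-3, TRAV7-4 and TRAV7-5 in 10 of 12 libraries, and at each step among all 5 in 7. TRAV7-6, still more proximal, had 42.2 in the KO and 40.9 in the WT library at steady state and 44.4 in the KO and 38.3 in the WT library at 48 h, above all 5 other members of the same library. Among all 79 segments TRAV7-1 ranked 67 from the highest in both genotypes at steady state and 78 in both at 24 h. At 48 h it ranked 69 in KO and 56 in WT, where TRAV7-2 ranked 60. TRAV7-5 ranked 29 to 34 in all 6 groups. Over the whole array the mean Traj number did not rise steadily. In WT at steady state TRAV7D-5, at rank 17 in table order, averaged 28.0, above TRAV7-2, at rank 39, with 25.4.

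From 24 h to 48 h the partners moved down the Traj array in both genotypes. In KO thymocytes the difference, 48 h minus 24 h, was -8.37 for TRAV7-3 (SE 1.26), -7.96 for TRAV7-4 (SE 1.14), -8.66 for TRAV7-5 (SE 1.21) and -5.40 for TRAV7-2 (SE 1.74), and limma called these 4 of 5 lower, against 82.3% of segments. TRAV7-1 differed by -2.43 (SE 1.53, limma adjusted p = 0.149). In WT thymocytes limma called all 5, against 91.1% of segments. The differences were -12.4 for TRAV7-2 (SE 1.74), -9.66 for TRAV7-3 (SE 1.26), -9.65 for TRAV7-4 (SE 1.14), -10.1 for TRAV7-5 (SE 1.21) and -5.01 for TRAV7-1 (SE 1.53, limma adjusted p = 0.0107). Whether the fall differs between genotypes was not tested.

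The 5 members summed gave the profile of their partners. The 13 segments Traj58 to Traj42, nearest the Trav array, held 34.5% and 30.9% of Trav7 rearrangements in KO libraries at steady state, against 24.9% and 22.6% in WT libraries. At 24 h they held 65.6% and 73.9% in KO libraries, against 48.7% and 58.4% in WT libraries, and at 48 h 39.2% and 38.4% in KO libraries, against 24.2% and 23.8% in WT libraries. At all 3 samplings the KO libraries were higher without overlap. The 14 segments Traj21 to Traj2, at the far end, held 21.5% and 23.7% in KO and 33.7% and 35.9% in WT libraries at steady state, 4.74% and 4.04% in KO and 8.80% and 6.81% in WT libraries at 24 h, and 12.7% and 14.9% in KO and 29.5% and 27.6% in WT libraries at 48 h. The KO libraries were lower there without overlap. These windows, and those of single members below, were not computed for the other segments. In mean Traj number, both KO libraries stood above both WT libraries in 97.5%, 86.1% and 83.5% of all segments at the 3 samplings in turn.

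**Figure D5:**
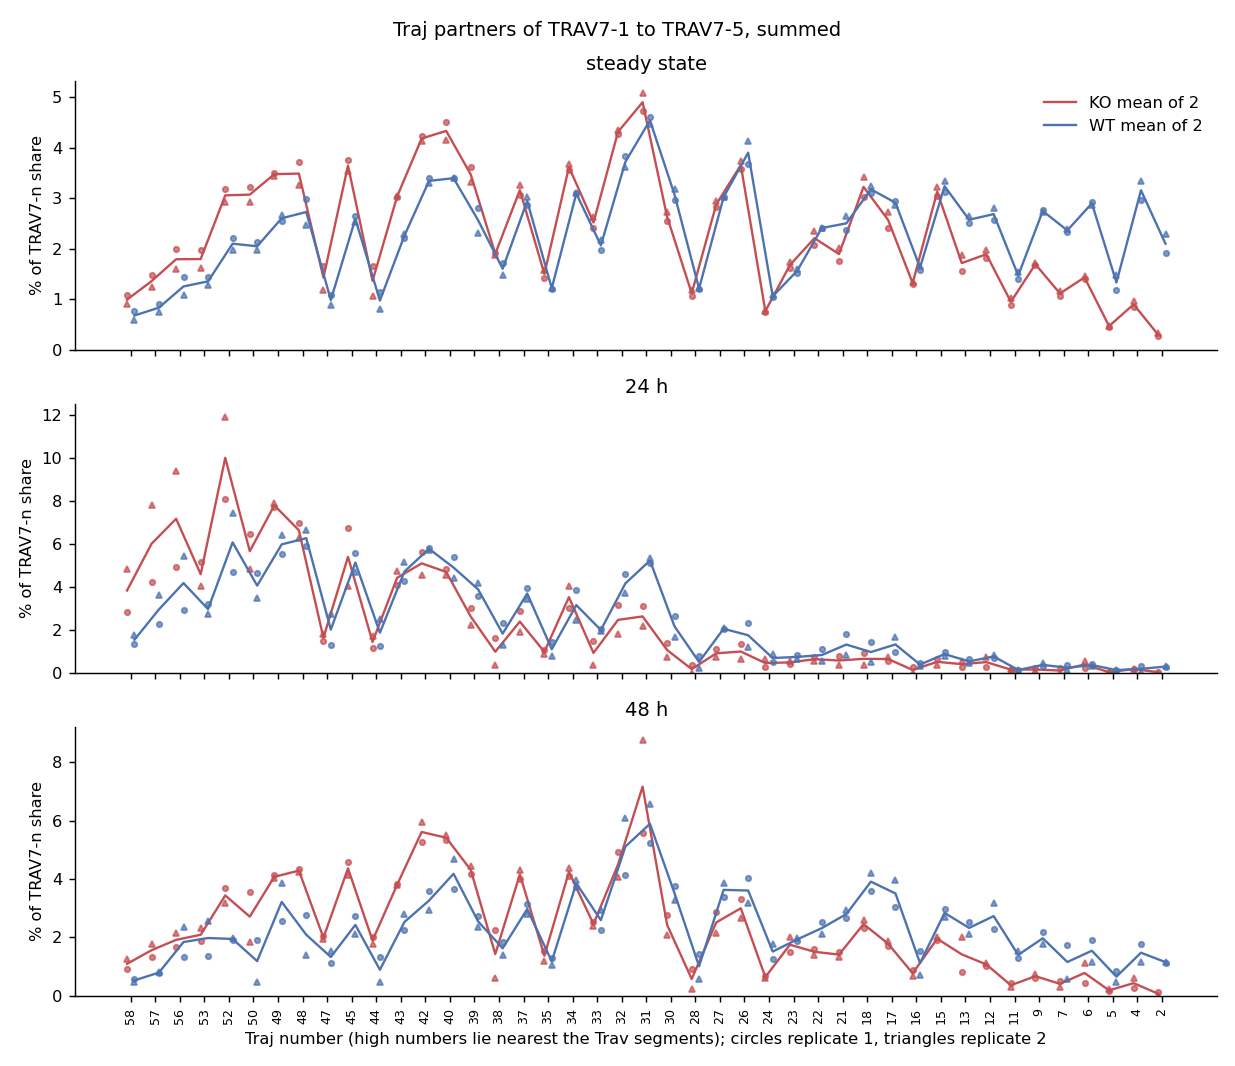
Percentage of the summed TRAV7-1 to TRAV7-5 rearrangements that used each Traj segment (y axis), with Traj segments in array order from Traj58 to Traj2 (x axis), in 3 panels by sampling; red is KO and blue WT, lines are means of 2 libraries and symbols single libraries. At 24 h KO libraries peak at Traj52, at 10.02% on average, and at steady state and 48 h both genotypes peak at Traj31.

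Single partners showed the same course. Traj31 was the most used partner of the 5 members at steady state, at 4.91% ± 0.25 in KO and 4.55% ± 0.10 in WT libraries (SD, n = 2 each), and at 48 h, at 7.16% ± 2.26 in KO and 5.89% ± 0.95 in WT libraries (SD, n = 2 each). At 24 h the leading partner in KO libraries was Traj52, at 10.02% ± 2.70 (SD, n = 2). In WT libraries Traj48, at 6.27% ± 0.52, and Traj52, at 6.08% ± 1.95, were close (SD, n = 2 each). Traj48 led in WT replicate 1 and Traj52 in WT replicate 2. By mean share over all libraries, the top partner was TRAJ31 for TRAV7-1 and TRAV7-3, TRAJ42 for TRAV7-2, TRAJ52 for TRAV7-4 and TRAV7-6, and TRAJ56 for TRAV7-5. These means pool samplings whose Traj profiles differ, and single libraries weigh in them. TRAV7-2 with TRAJ42 averaged 0.0096% of the repertoire, with a median of 0.0062%, and was listed at 0 to 0.0378%, highest in WT 48 h replicate 2. TRAV7-4 with TRAJ52 averaged 0.185%, with a median of 0.126% and a highest value of 0.558% in KO 24 h replicate 2. TRAV7-5 with TRAJ56 ranged from 0.0418% in WT steady state replicate 2 to 0.340% of the repertoire in KO 24 h replicate 2.

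The members differed in how far they used the first Traj segments. Traj58 to Traj53 held 14.4% and 12.2% of TRAV7-5 rearrangements in KO and 11.7% and 9.83% in WT libraries at steady state, 30.6% and 40.2% in KO and 17.8% and 20.8% in WT libraries at 24 h, and 12.1% and 15.98% in KO and 9.38% and 10.5% in WT libraries at 48 h. Of TRAV7-1 rearrangements the same segments held 0.803% and 0.376% in KO and 0.280% and 0.257% in WT libraries at steady state, 3.06% and 0% in KO and 0.7498% and 3.84% in WT libraries at 24 h, and 0.755% and 0% in KO and 0.221% and 0% in WT libraries at 48 h. The distal member thus used them less than the proximal one in each of the 12 libraries. At the far end, Traj11 to Traj2 held 6.34% and 7.95% of TRAV7-1 rearrangements in KO and 20.1% and 24.6% in WT libraries at steady state, where the groups did not overlap. At 24 h they held 0.306% and 15.4% in KO and 1.69% and 0% in WT libraries, and at 48 h 1.81% and 4.39% in KO and 11.3% and 3.23% in WT libraries, with overlap at both. In TRAV7-5 they held 5.23% and 6.22% in KO and 11.4% and 12.3% in WT libraries at steady state, 0.972% and 0.702% in KO and 1.88% and 0.882% in WT libraries at 24 h, and 2.70% and 1.12% in KO and 9.59% and 8.195% in WT libraries at 48 h, with overlap at 24 h only.

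Of 215 Trav-Traj pairs with a TRAV7-n segment, few were called, and those called without the replicate block both used TRAJ2. TRAV7-4 with TRAJ2, the lowest-numbered Traj listed, held 0.00890% and 0.00840% in KO and 0.0530% and 0.0635% in WT libraries at steady state. At 24 h it was listed at 0 in both KO libraries, against 0.00939% and 0.0165% in WT libraries, and at 48 h it held 0.00256% and 0 in KO libraries, against 0.0363% and 0.0566% in WT libraries. The KO libraries lay below the WT libraries at each sampling. At steady state the difference was -1.87 (SE 0.27, limma adjusted p over 3397 pairs = 0.0462, and 0.135 with the replicate block), and this was 1 member pair called where 0.294% of all pairs were. In the mean of the 3 it was -1.79 (SE 0.16, limma adjusted p = 0.00910, and 0.0330 with the block).

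TRAV7-5 with TRAJ2 was the other pair called in the mean, where 1.09% of all pairs were. It held 0.00606% and 0.00773% in KO and 0.0326% and 0.0350% in WT libraries at steady state, 0.000821% and 0 in KO and 0.00256% and 0.00823% in WT libraries at 24 h, and 0.00340% and 0 in KO and 0.0200% and 0.0378% in WT libraries at 48 h. Its mean difference was -1.21 (SE 0.18, limma adjusted p = 0.0260, and 0.0511 with the block), and its groups did not overlap at any sampling. How many of all pairs separate likewise was not counted for either pair. Over the 5 members summed, TRAJ2 averaged 0.297% of rearrangements in KO and 2.10% in WT libraries at steady state. The size of the differences of these 2 pairs depends on the 0.01 added, since several KO libraries are listed at 0. At 24 h and 48 h limma called 0 of 215 member pairs and 0% of all pairs, with 17 and 39 member pairs and 187 and 510 of all pairs at an unadjusted p under 0.05. With the block it called 3 at 48 h, TRAV7-1 with TRAJ13, TRAV7-3 with TRAJ11 and TRAV7-4 with TRAJ2, all lower, where 1.65% of all pairs were called. In the mean the block also called TRAV7-1 with TRAJ13 lower (-0.84, adjusted p = 0.0393) and TRAV7-4 with TRAJ52 higher (0.75, adjusted p = 0.0393). There it called 2.24% of all pairs, 2.09% as lower and 0.147% as higher.

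The number of member pairs called depended on the libraries, and the fits without some libraries hold groups of 1 library. For the runs that left out 1 library, the share of all pairs called is not given, so their counts do not set the members apart. Without the 4 libraries that total nearly 2, limma called 31 at steady state, 56 at 48 h and 97 in the mean, 70 of the 97 lower, where 10.8%, 20% and 36.7% of all pairs were called. Leaving out 1 library gave 0 pairs at steady state for 10 of the 12 libraries and 7 without either WT 48 h library. At 48 h it gave 9 without KO replicate 1, 23 without WT replicate 1 and 2 without WT replicate 2. In the mean it gave 0 without any of 7 libraries, both KO and both WT libraries of steady state, both KO libraries of 24 h and WT replicate 2 of 24 h, and 8 without KO 48 h replicate 1, 7 and 18 without the WT replicates 1 and 2 of 48 h.

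Other Trav segments shared the course of single members over the 12 libraries, by Pearson's r of log2(percent + 0.01) as a description. TRAV7-1 was most like TRAV6-2 (r = 0.976), the next segment in table order at rank 5. TRAV7-3 was most like TRAV6-5 (r = 0.994), TRAV6D-6 (r = 0.978) and TRAV8-1 (r = 0.976), and its r with TRAV7D-3 was 0.983. TRAV7-2 was most like TRAV1 (r = 0.886), TRAV7-4 like TRAV4D-3 (r = 0.745) and TRAV7-5 like TRAV3-4 (r = 0.763). TRAV7-4 and TRAV7D-4 ran opposite to each other (r = -0.668). They differ at 2 of 341 bases, and the split of reads between them is uncertain. At every sampling and in both genotypes TRAV7-4 was higher and TRAV7D-4 lower in replicate 2 than in replicate 1. The libraries come from tables of 2 resolutions and vary with replicate number, and these values were adjusted for neither.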

How the data were processed

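Tcra transcripts of 12 libraries were amplified from total RNA by template-switch RACE with a primer in the constant segment Trac, per the labels' protocols. The deposited values are fractions of the repertoire for each Trav-Traj pair, per the file headers; the aligner, genome build, counting unit and depth are not given in these sources, so no counts were restored and no intervals for counting error are given. Each fraction was divided by its table's total and summed per Trav segment. Entries without a segment name were dropped, and segments not in all 12 tables stayed out of the fits.

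A model with 6 group means was fitted in limma 3.58.1 (R 4.3.3), with empirical Bayes moderation, to log2(percent + 0.01) of 79 segments, to the usage-weighted mean Traj number of those segments, and to 3397 pairs, with Benjamini-Hochberg adjustment at 0.05. The design allowed for counts, but the values are fractions and the test for fractions was used. The procedure was tested on simulated data. A permutation test within 1 sampling, 2 libraries against 2, could not reach 0.05, so none was made. KO and WT libraries of the same number deviated together in segment shares (r over 79 segments 0.723 at steady state, then 0.927 and 0.931 at the later samplings), so the numbers were taken to pair them for shares. This pairing comes from the data, not from the labels. At 24 h and 48 h replicate 2 of both genotypes is the library that totals nearly 2. Pairing by number and kind of table cannot be told apart at those samplings. At steady state replicate 1 of both genotypes lists TRAV7-6 and TRAV18 but not TRAV5-1, and replicate 2 the reverse. Pairing by number and list of segments cannot be told apart there. For the mean Traj number r was 0.840 at steady state but 0.0903 and 0.0213 at the later samplings, and for shares between 24 h and steady state 0.128 in KO and -0.0318 in WT. Between 48 h and 24 h r for shares was high, at 0.880 in KO and 0.892 in WT. The numbers were still not taken to pair samplings, or genotypes in mean Traj number, since r was not over 0.1 in every case. For shares at 48 h minus 24 h, limma with the replicate block called 0% of segments in KO and 1.27% in WT.

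All TRAV7-n segments are named, with each one's top partner, up to 5 pairs called in each direction and the 3 segments most like it, of which the text gives those that matter. The related list is TRAV7D-n. Members and lists were chosen with earlier results of these data known. Alternatives were other added values, a filter on low values, shared segments scaled to 100%, centring, the replicate block, Traj rank for number, and leaving out libraries. Sequences come from GENCODE M21, aligned with MAFFT 7.526.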

Additional observations from a re-analysis of the deposited data

Results flagged for a closer look

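TRAV7-6 is listed in 4 of the 12 tables and enters no test. It was higher in the KO library in both comparisons that its tables allow. It stands after rank 68, among the proximal segments. Of the 27 such segments shared by all tables, 24 had a positive mean KO minus WT difference in share over the 3 samplings. At steady state it held 0.0413% in KO replicate 1, against 0.0224% in WT replicate 1. At 48 h it held 0.0399% in KO replicate 1, against 0.0231% in WT replicate 1. Its rearrangements used 31 of 43 Traj partners in the KO library and 24 in the WT library at steady state, and 31 in each at 48 h. With 1 library a group the difference has no replicate check and was not tested.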

How the results depend on the processing

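With the replicate block limma called 1 member share in KO minus WT at 24 h and 1 in the mean of the 3, and 0, 3 and 3 member pairs at steady state, at 48 h and in the mean; it changed no call of a member's mean Traj number, but called 54 in place of 37 of all 79 segments at 24 h. Without the 4 libraries that total nearly 2 it called 1 member share in the mean, 1 in KO and 1 in WT for 48 h minus 24 h, 3 in KO and 2 in WT for 24 h minus steady state, and 31, 56 and 97 pairs. There TRAV7-5 at 24 h stood at 0.079, TRAV7-4 in the mean at -0.020 and the mean Traj number of TRAV7-2 at 24 h at 2.42, the opposite sign. Centring gave 1 member share for 48 h minus 24 h in KO, where it called 6 of 79 segments. It gave 0 pairs at steady state and 1 in the mean. It put TRAV7-5 at 0.084 at 24 h and TRAV7-3 at 0.010 in the mean. Scaling the shared segments to 100% put TRAV7-4 at -0.0075 in the mean. Adding 0.001 gave 0 pairs at steady state and 1 in the mean, adding 0.1 gave 4, 2 at 48 h and 7, and the filter on low values gave 0 and 1. The share of all pairs called is not given for centring, the other added values and the filter. Without the 4 libraries that total nearly 2, each group of 24 h and 48 h holds 1 library, with a spread taken from steady state alone. The cause of these shifts was not tested.

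Leaving out 1 library at a time, member shares called ranged from 0 to 1 for 24 h minus steady state in KO and in WT. Mean Traj numbers called ranged from 0 to 5 at steady state, 0 to 3 at 24 h, 4 to 5 at 48 h, 3 to 4 for 48 h minus 24 h in KO and 4 to 5 in WT. Pairs called ranged from 0 to 7 at steady state, 0 to 23 at 48 h and 0 to 18 in the mean. The shares of all segments and pairs called in these runs are not given, so the ranges do not set the members apart. None of the KO minus WT differences in share passed, and their signs changed for TRAV7-2 and TRAV7-3 at steady state (-0.64 to 0.11 and -0.060 to 0.033), TRAV7-2, TRAV7-3 and TRAV7-5 at 24 h (-0.17 to 0.72, -1.20 to 0.75 and -0.28 to 0.21), TRAV7-1, TRAV7-3 and TRAV7-4 at 48 h (-0.53 to 0.36, -0.77 to 0.89 and -0.32 to 0.50), and TRAV7-3 and TRAV7-4 in the mean (-0.39 to 0.26 and -0.13 to 0.14). Between samplings, signs changed among others for TRAV7-3 at 48 h minus 24 h (-0.35 to 1.60 in KO and -0.60 to 1.28 in WT). The one such change of sign in KO minus WT mean Traj number was that of TRAV7-2 at 24 h (-3.07 to 2.51). Where a group then holds 1 library, it is assumed to vary like the others. Replacing the Traj number by its rank moved no count of calls by more than 1.5 times.

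Groups of 2 libraries, an unknown depth and coarse tables in 4 of the 12 limit these results, most of all for TRAV7-2 and for single pairs.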
